A study of Homo sapiens with 6 samples.

Results

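The 10 genes described here encode the core kinases and upstream scaffolds of the Hippo pathway: the kinases STK3, STK4, LATS1 and LATS2, the adaptors SAV1, MOB1A and MOB1B, and the upstream proteins NF2, FRMD6 and FAT1. They were chosen by symbol from the 36884 genes of the deposited count table, and each of the 10 symbols stood in 1 row. The RNA came from RPE1, a non-transformed human line of retinal pigment epithelium made immortal with telomerase, in which LATS1 and LATS2 had been inactivated by CRISPR-Cas9. The siMK5 group was transfected with siRNA against MK5, the protein kinase encoded by MAPKAPK5, and the siCon group with control siRNA, both for 48 h, with 3 libraries a group described by the submitters as biological replicates. All 6 libraries carry the LATS1 and LATS2 edits, so no library shows cells with working LATS kinases, and the sources used here do not say whether the cells are 1 clone or which siRNA sequences were used.

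In the Hippo pathway, STK3 and STK4 (also called MST2 and MST1), bound to the scaffold SAV1, phosphorylate the LATS kinases and their MOB1 coactivators. Active LATS kinases phosphorylate the transcriptional coactivators YAP and TAZ, which are then held in the cytoplasm or degraded. NF2 (merlin) and FRMD6 are FERM-domain proteins at the cell cortex that promote this phosphorylation, and FAT1 is a giant atypical cadherin reported to act upstream of the kinases. LATS2 and NF2 are themselves known as YAP and TAZ target genes in other human cells, a negative feedback.

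Of the 10 genes, 5 fell after MK5 siRNA and none rose (edgeR's quasi-likelihood test, with p adjusted by Benjamini-Hochberg over the 13431 genes tested and a threshold of 0.05). The falls took in all 3 upstream genes, FAT1, FRMD6 and NF2, and 2 of the 3 adaptors, SAV1 and MOB1B. None of the 4 core kinases passed. Over all genes tested, 46.2% passed, 23.7% downward and 22.5% upward, so changed genes were common in this comparison. A fall that passed and was at least 2-fold was seen in 4 of the 10 genes and in 11.5% of all genes tested. The median log2 fold change was −0.62 over the 10 genes and 0.00 over all genes tested. Levels are CPM, which are counts divided by library totals scaled with the TMM method. Log2 fold changes are siMK5 over siCon and carry the standard error of the edgeR fit. In bulk RNA, fewer cells with a transcript and less of it per cell cannot be told apart.

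The siMK5 libraries held 27188074 to 28188824 counts and the siCon libraries 27594088 to 28236773. Replicate 1 stood apart in both groups, more so in siCon. For genes with a mean of 200 to 1000 counts, the squared difference between replicates 2 and 3 was 1.95 times the counting noise in siMK5 and 2.88 times in siCon. Between replicate 1 and either other replicate it was 12.7 and 14.3 times in siMK5, and 49.8 and 52.2 times in siCon. MAPKAPK5, the siRNA's target, was at 17.4, 14.1 and 16.2 CPM in siMK5 replicates 1, 2 and 3, against 35.6, 29.05 and 31.3 CPM in siCon, which left 49.8% of the siCon level (log2 fold change −1.01 ± 0.14, edgeR adjusted p = 0.00169). Of 13 markers of retinal pigment epithelium, 5 averaged at least 1 CPM, among them MITF and OTX2, while RPE65, RLBP1 and TYR were near 0 and TTR had no count. Among markers of simple epithelium, KRT8 and KRT18 were high, CDH1 and KRT19 were below 1 CPM in every library, and EPCAM and ESRP1 had no count. The pigment epithelium markers summed to 60.8 to 67.8 CPM in siMK5 libraries and 88.3 to 101 CPM in siCon libraries, with 3 of 13 fallen, and the simple epithelium markers to 399 to 591 CPM in siMK5 and 769 to 848 CPM in siCon, with 3 of 8 fallen. The mesenchymal markers, led by VIM and FN1, summed to 7051 to 9216 CPM in siMK5 and 7649 to 8520 CPM in siCon. Of these, COL1A2 and COL3A1 were below 1 CPM in every library. In this list 1 of 8 rose (COL1A1, log2 fold change 1.83) and 1 fell (THY1, −2.18). The 5 neuron and glia markers summed to 67.0 to 78.6 CPM in siMK5 and 64.6 to 95.5 CPM in siCon, and SNAP25 rose (2.45) while MAP2 fell (−0.59). The part of these marker shifts in the results was not tested. The 7 leukocyte markers summed to at most 0.511 CPM in any siMK5 library and 0.332 CPM in any siCon library.

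**Figure D1:**
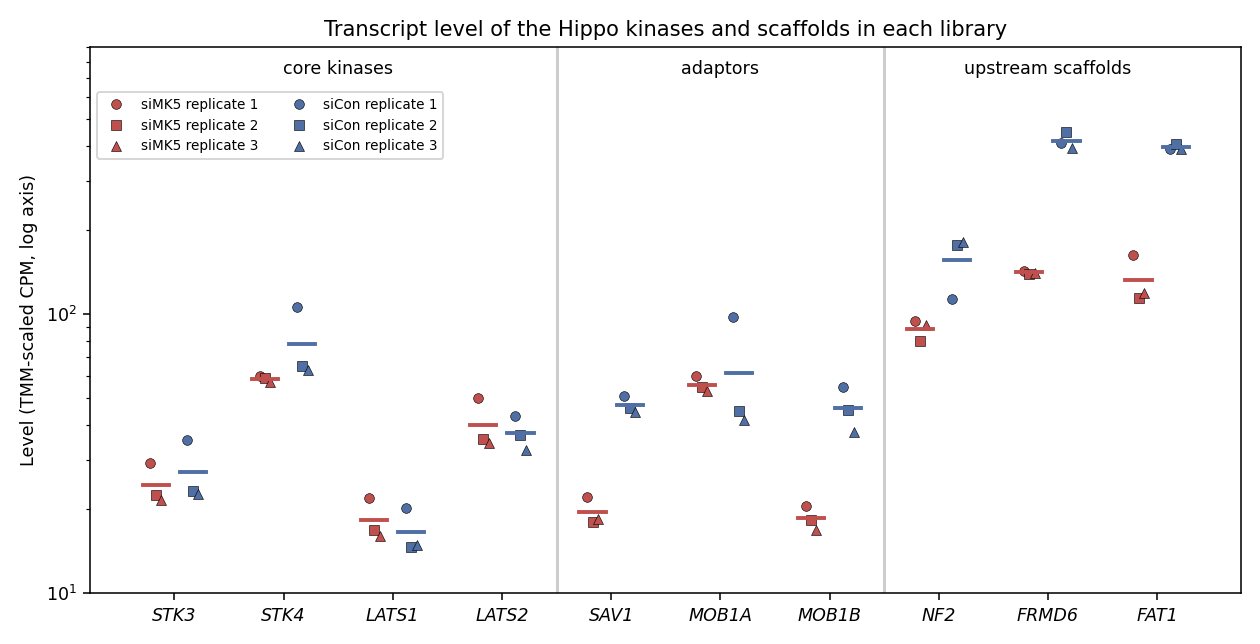
Level of each of the 10 genes in every library (TMM-scaled CPM, log axis). Each point is 1 library, its shape is the replicate number, and the bar is the mean of 3. The siMK5 libraries lie below all siCon libraries for STK4, SAV1, MOB1B, NF2, FRMD6 and FAT1, and siCon replicate 1 is the highest point for STK3, STK4 and MOB1A.

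Sequences just before the transcription starts are shown for the 5 genes whose falls passed. Promoter sequences were taken from a set of RefSeq promoter windows (build GRCh38.p14). The set used held 9 of the 10 genes, all but STK3. Each line gives the 250 bases before the first start listed for the gene, 5′ to 3′ on the gene's strand. Capitals mark a match to one of 4 motifs, searched on both strands: GGAATG (bound by TEAD factors, the DNA-binding partners of YAP and TAZ), TGANTCA (AP-1), TGACGTCA (CRE) and TTTCCCGC (E2F).
FAT1, chr4:186726697-186726946, minus strand: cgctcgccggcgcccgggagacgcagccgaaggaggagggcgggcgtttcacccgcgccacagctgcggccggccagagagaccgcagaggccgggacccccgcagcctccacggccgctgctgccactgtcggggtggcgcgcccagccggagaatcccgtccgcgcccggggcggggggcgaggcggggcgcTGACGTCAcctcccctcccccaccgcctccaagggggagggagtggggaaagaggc
FRMD6, chr14:51488878-51489127, plus strand: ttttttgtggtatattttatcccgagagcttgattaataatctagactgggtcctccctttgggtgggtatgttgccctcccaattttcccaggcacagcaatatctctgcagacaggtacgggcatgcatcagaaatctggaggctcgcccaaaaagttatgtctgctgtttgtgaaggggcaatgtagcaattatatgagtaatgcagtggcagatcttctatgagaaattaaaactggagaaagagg
SAV1, chr14:50668307-50668556, minus strand: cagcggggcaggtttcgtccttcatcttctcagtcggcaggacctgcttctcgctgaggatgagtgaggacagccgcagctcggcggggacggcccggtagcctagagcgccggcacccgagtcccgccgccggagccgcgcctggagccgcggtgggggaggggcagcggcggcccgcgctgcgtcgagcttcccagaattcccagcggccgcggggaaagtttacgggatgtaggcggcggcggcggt
MOB1B, chr4:70902119-70902368, plus strand: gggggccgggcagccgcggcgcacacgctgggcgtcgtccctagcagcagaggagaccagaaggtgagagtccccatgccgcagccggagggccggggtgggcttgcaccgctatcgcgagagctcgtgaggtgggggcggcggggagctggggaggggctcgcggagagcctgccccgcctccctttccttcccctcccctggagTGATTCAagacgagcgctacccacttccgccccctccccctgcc
NF2, chr22:29603383-29603632, plus strand: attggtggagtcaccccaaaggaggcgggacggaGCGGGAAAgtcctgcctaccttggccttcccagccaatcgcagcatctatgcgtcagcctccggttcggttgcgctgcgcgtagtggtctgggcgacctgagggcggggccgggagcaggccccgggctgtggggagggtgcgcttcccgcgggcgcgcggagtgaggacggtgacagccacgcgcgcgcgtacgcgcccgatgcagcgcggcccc

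The FAT1 window held the CRE letters, which 1.85% of 35116 RefSeq promoter windows of 300 bases hold, and the MOB1B window held an AP-1 match, found in 7.71% of them. A further listed start of FAT1 held none of the 4 motifs, and LATS1, which did not pass, also held an AP-1 match at a listed start. These shares were not matched for G and C content, which was 77.3% in the 300 bases of FAT1 against a median of 58.7% over all windows. The NF2 window held the E2F letters on the opposite strand, as 1.63% of windows do, and those of FRMD6 and SAV1 held none of the 4 motifs. No promoter of the 5 genes held the TEAD letters, which stood in 14.03% of all windows. At that share, no match in 5 genes does not set them apart from other genes. Sequence outside these windows was not searched, and whether any of these motifs bears on the falls was not tested. Among the other genes, LATS2 held them once, starting 10 bases into the transcript, and LATS2 did not pass in this comparison. The 30 bases around that match, with the TEAD letters in capitals, are shown for comparison.
LATS2, chr13:21061560-21061589, minus strand: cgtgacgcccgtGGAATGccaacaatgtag

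Of the core kinases, STK4 (ENSG00000101109) was at 59.8, 59.0 and 57.1 CPM in siMK5 replicates 1, 2 and 3, against 106, 65.4 and 63.1 CPM in siCon. The groups did not overlap, but most of the difference lay in siCon replicate 1, and the log2 fold change of −0.42 ± 0.21 did not pass (edgeR adjusted p = 0.143). Its 95% interval ran from −0.91 to 0.08, and the estimate was −0.13 without siCon replicate 1 (edgeR adjusted p = 0.151). STK3 (ENSG00000104375) was at 29.2, 22.5 and 21.6 CPM in siMK5 and at 35.2, 23.3 and 22.7 CPM in siCon. The groups overlapped, with replicate 1 the highest library in each, and the log2 fold change was −0.15 ± 0.21 (95% interval −0.66 to 0.36, edgeR adjusted p = 0.597).

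LATS1 and LATS2, the kinases inactivated in these cells, were counted in every library. A small edit can inactivate a gene while its RNA is still made, so these counts do not check the edits. LATS1 (ENSG00000131023) was at 21.9, 16.8 and 16.1 CPM in siMK5 replicates 1, 2 and 3, against 20.2, 14.7 and 14.9 CPM in siCon. LATS2 (ENSG00000150457) was at 50.1, 35.7 and 34.5 CPM in siMK5, against 43.1, 36.8 and 32.6 CPM in siCon. In both genes replicate 1 was the highest library of each group and the groups overlapped. Their log2 fold changes were 0.14 ± 0.19 (95% interval −0.32 to 0.59) and 0.10 ± 0.18 (−0.34 to 0.53), with edgeR adjusted p = 0.583 and 0.689.

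The adaptors split. SAV1 (ENSG00000151748), whose SARAH domain binds that of STK3 and STK4, was at 22.1, 18.0 and 18.5 CPM in siMK5 replicates 1, 2 and 3, against 50.6, 46.0 and 44.5 CPM in siCon. The highest siMK5 library lay well below the lowest siCon library. SAV1 fell to 41.6% of the siCon level (log2 fold change −1.27 ± 0.13, edgeR adjusted p = 0.000574), and stayed between −1.36 and −1.20 with any 1 library left out. MOB1B (ENSG00000173542), a coactivator that binds LATS kinases, was at 20.5, 18.4 and 16.9 CPM in siMK5, against 54.8, 45.4 and 37.7 CPM in siCon. Its groups were likewise apart, and it fell to 40.5% (−1.31 ± 0.17, edgeR adjusted p = 0.00129).

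MOB1A (ENSG00000114978), the close paralog of MOB1B, did not pass. It was at 59.8, 54.7 and 52.8 CPM in siMK5 and at 97.2, 44.8 and 41.6 CPM in siCon. The 3 siMK5 libraries lay between siCon replicate 1, the highest library, and siCon replicates 2 and 3. The log2 fold change was −0.13 ± 0.32 (95% interval −0.89 to 0.63, edgeR adjusted p = 0.755). Within same-numbered pairs of libraries, on log2(CPM + 0.5), MOB1A changed by −0.70 in pair 1 and by 0.28 and 0.34 in pairs 2 and 3. Without siCon replicate 1 it was 0.37 ± 0.09 and passed upward (edgeR adjusted p = 0.00621), and without replicate 1 of both groups it was 0.32 ± 0.07 (edgeR adjusted p = 0.000444). The direction of MOB1A therefore depended on siCon replicate 1. Of all genes tested, 64.4% passed without siCon replicate 1 and 75.8% without replicate 1 of both groups.

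**Figure D2:**
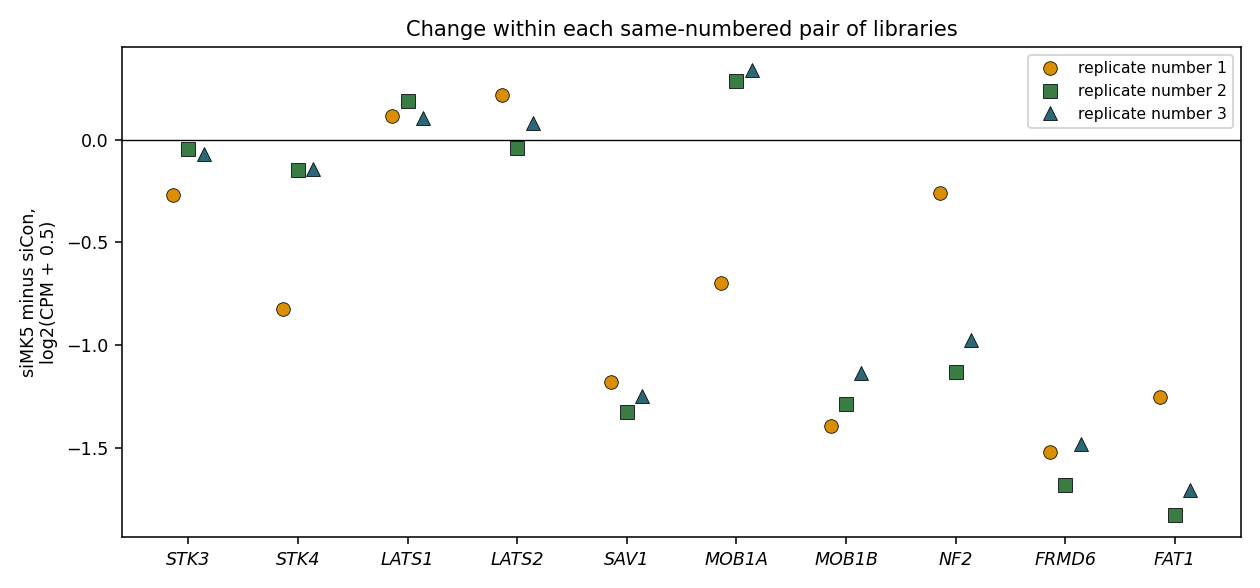
Change within each same-numbered pair of libraries, siMK5 minus siCon on log2(CPM + 0.5), for the 10 genes, with 1 point a pair. FAT1, FRMD6, SAV1 and MOB1B lie below −1 in all 3 pairs, NF2 lies at −0.26 in pair 1 against −1.13 and −0.98 in pairs 2 and 3, and MOB1A changes sign between pair 1 and the others.

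Among the upstream genes, FRMD6 (ENSG00000139926) was at 142, 139 and 141 CPM in siMK5 replicates 1, 2 and 3, against 408, 448 and 393 CPM in siCon. It fell to 33.8% of the siCon level (log2 fold change −1.56 ± 0.10, edgeR adjusted p = 0.000209), and replicate 1 did not stand apart in either group. FAT1 (ENSG00000083857) was at 163, 114 and 119 CPM in siMK5, against 389, 406 and 389 CPM in siCon. The siCon libraries were close together and siMK5 replicate 1 was the highest of its group. FAT1 fell to 33.5% (−1.58 ± 0.16, edgeR adjusted p = 0.000540), and to −1.75 without siMK5 replicate 1. Of all genes tested, 5.18% had a lower log2 fold change than FAT1 and 5.32% a lower one than FRMD6.

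NF2 (ENSG00000186575), the tumour suppressor mutated in neurofibromatosis type 2, also fell. It was at 94.3, 80.2 and 91.5 CPM in siMK5 replicates 1, 2 and 3, against 113, 176 and 181 CPM in siCon. All siMK5 libraries were below all siCon libraries, but siCon replicate 1 lay nearer to siMK5 than to the other siCon libraries. The log2 fold change was −0.82 ± 0.19 (edgeR adjusted p = 0.0124), or 56.7% of the siCon level. It was −1.002 without siCon replicate 1, and the threshold was missed without siMK5 replicate 2 (−0.74, edgeR adjusted p = 0.0569).

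**Figure D3:**
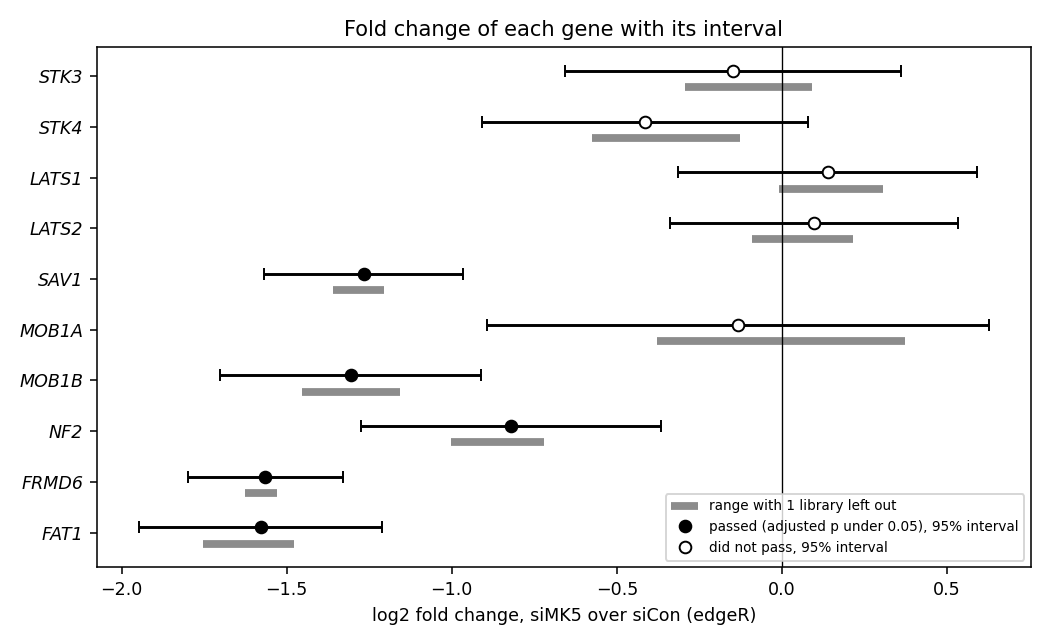
Fold change of each gene, siMK5 over siCon on the log2 scale, with its 95% interval (edgeR, n = 3 a group) and, in grey, the range of the estimate with each library left out in turn. Filled points passed an adjusted p of 0.05. The intervals of SAV1, MOB1B, NF2, FRMD6 and FAT1 lie below 0, and the grey range of MOB1A runs from −0.38 to 0.37.

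In all, 6 of the 10 genes had siMK5 libraries below all siCon libraries (the 5 that fell, and STK4), where 29.8% of all genes tested did so, 30.6% lay above and 60.4% were apart in either direction. The change had the same sign in all 3 same-numbered pairs in 8 of the 10 genes, all but MOB1A and LATS2, and in 73.5% of all genes tested. The 10 genes also differed in how they varied within a group. The coefficient of variation over siCon libraries ran from 2.45% in FAT1 to 51.0% in MOB1A, and over siMK5 libraries from 1.04% in FRMD6 to 21.7% in LATS2. On log2(CPM + 0.5), siCon replicate 1 exceeded the mean of siCon replicates 2 and 3 by 1.16 in MOB1A, 0.72 in STK4 and 0.61 in STK3, and lay below it by −0.65 in NF2. In siMK5, replicate 1 exceeded the others most in LATS2, by 0.51, and FAT1, by 0.48. The part of this deviation in the results was measured by leaving out replicate 1: without it in both groups the same 5 genes passed downward and MOB1A passed upward. In that setting 75.8% of all genes tested passed, against 46.2% with all libraries, so passing there sets a gene apart less.

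Paralogs can be set against each other inside 1 library, where library scaling cancels. The count ratio of MOB1B to MOB1A was 0.343, 0.336 and 0.320 in siMK5 replicates 1, 2 and 3, against 0.564, 1.01 and 0.905 in siCon. The groups were apart, with a difference of mean log2 ratios of −1.27 (two-sided exact permutation test p = 0.1, the smallest that 3 against 3 libraries allow; adjusted p = 0.15 over the 3 ratios computed). The ratio of STK3 to STK4 was 0.488, 0.381 and 0.378 in siMK5 against 0.332, 0.356 and 0.3604 in siCon, apart by 0.24 on the log2 scale (exact permutation test p = 0.1, adjusted p = 0.15), and apart by 0.08 without replicate 1 of both groups. The ratio of LATS2 to LATS1 was 2.29, 2.13 and 2.15 in siMK5 and 2.14, 2.50 and 2.19 in siCon, with overlapping groups and a difference of −0.05 (exact permutation test p = 0.6, adjusted p = 0.6). Of the 50-base words in the longest transcript of MOB1A, 0.827% occur in a transcript of any other gene, as do 0.0868% of those of MOB1B, 1.22% of those of STK4 and none of those of STK3, LATS1 and LATS2. The highest such share was 8.53%, in SAV1, with words shared with the transcript AC093890.1.

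**Figure D4:**
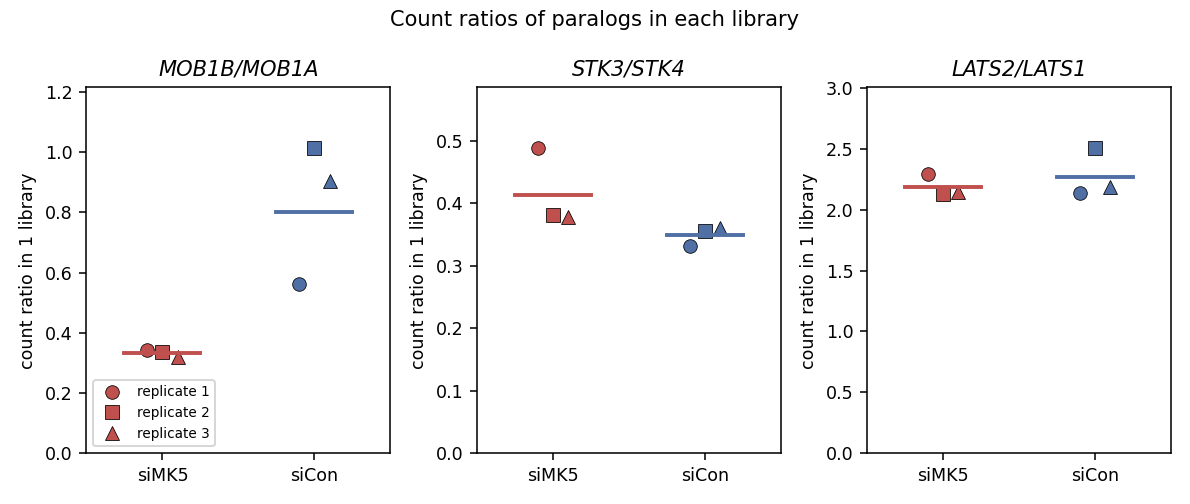
Count ratio of each paralog pair within each library, with 1 point a library and the geometric mean of 3 as a bar. MOB1B to MOB1A lies between 0.320 and 0.343 in siMK5 and between 0.564 and 1.01 in siCon, while LATS2 to LATS1 overlaps between the groups.

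Levels were compared between genes only after division by the length of the longest protein-coding transcript (CPM per kb). FRMD6 led in both groups, at 29.2 ± 0.303 CPM per kb in siMK5 and 86.3 ± 5.86 in siCon (SD, n = 3 each). In siCon it was followed by FAT1 (26.7 ± 0.655) and NF2 (26.0 ± 6.25), whose ranges overlapped. SAV1, MOB1A, STK4, STK3, LATS2 and MOB1B came next, from 15.4 ± 1.04 in SAV1 to 6.60 ± 1.23 in MOB1B, each overlapping its neighbour. LATS1 was lowest, at 2.20 ± 0.413, below every library of MOB1B.

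The order differed in siMK5. NF2 was the second, at 14.7 ± 1.24 CPM per kb, apart from MOB1A at 11.4 ± 0.745, which in turn was apart from STK4 at 9.25 ± 0.218. FAT1 (8.93 ± 1.81), STK3 (7.86 ± 1.33), LATS2 (7.28 ± 1.58) and SAV1 (6.39 ± 0.726) followed, with each pair of neighbours overlapping, and MOB1B (2.67 ± 0.265) and LATS1 (2.43 ± 0.420) were lowest and overlapped. By mean level, SAV1 stood in place 8 of 10 in siMK5 and place 4 in siCon, and FAT1 in place 5 in siMK5 and place 2 in siCon.

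Profiles over the 6 libraries were compared by root-mean-square distance on log2(CPM + 0.5) after centring each gene on its mean, without scaling. The distance thus depends on the size of changes as well as on their shape. LATS1 and LATS2, with log2 fold changes of 0.14 and 0.10, were the nearest of the 45 pairs of these genes, at 0.08. SAV1 and MOB1B, at 0.11, were next. Among the 10481 other genes of at least 5 CPM, those nearest to FRMD6 were RTN3, a reticulon of the endoplasmic reticulum (distance 0.05, log2 fold change −1.52), ITSN1, an endocytic scaffold (0.06, −1.51), and DDX60, an interferon-induced helicase (0.07, −1.67). Those nearest to FAT1 were DAPK1, a calmodulin-regulated kinase (0.08, −1.45), RFLNB, a filamin-binding protein (0.10, −1.57), and NOC3L, a nucleolar protein (0.11, −1.61). These distances describe 6 libraries in 2 groups.

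Around these 10 genes, 106 others of the pathway and of the same protein families were taken as 9 whole lists. Of the 96 that could be tested, 28 fell and 13 rose, which is 42.7% against 46.2% of all genes tested, and their median log2 fold change was −0.10. YAP1, the effector of the pathway, was at 44.5 ± 0.988 CPM in siMK5 and 112 ± 27.8 CPM in siCon (log2 fold change −1.34 ± 0.18, edgeR adjusted p = 0.00151). WWTR1, which encodes TAZ, was at 77.2 ± 5.41 CPM in siMK5 and 110 ± 3.85 CPM in siCon (−0.51 ± 0.10, edgeR adjusted p = 0.00615). Without siCon replicate 1, 36 of the other pathway genes fell and 28 rose, while 64.4% of all genes passed.

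Of 10 tested Ste20-type and TAO kinases that can phosphorylate LATS kinases, or are close relatives of those that do, 2 rose and 1 fell. That is 30% against 46.2% of all genes tested. TNIK rose to 79.4 ± 2.28 CPM in siMK5, against 43.2 ± 6.59 CPM in siCon (0.88 ± 0.13, edgeR adjusted p = 0.00221), MINK1 rose by 0.46 ± 0.10 (edgeR adjusted p = 0.0109), and MAP4K2 fell by −0.82 ± 0.13 (edgeR adjusted p = 0.00266). Without siCon replicate 1, 4 of these 10 rose and 4 fell, where 64.4% of all genes passed. Of 6 kinases of the germinal centre kinase family related to STK3 and STK4, only STK24 (MST3) passed, at 260 ± 14.8 CPM in siMK5 and 151 ± 9.79 CPM in siCon (0.78 ± 0.10, edgeR adjusted p = 0.00142). STK38 and STK38L, the NDR kinases most related to LATS1 and LATS2, had log2 fold changes of −0.35 and 0.10, with edgeR adjusted p = 0.287 and 0.802. Both had their lowest siCon level in replicate 1. Without that library STK38 was at −0.59 and passed downward (edgeR adjusted p = 0.000855), while STK38L was at −0.17 (edgeR adjusted p = 0.263). Without replicate 1 of both groups, where 75.8% of all genes passed, STK38L passed downward at −0.29 (edgeR adjusted p = 0.00316). Among the NDR and MOB relatives tested (6 genes), MOB3A (−1.19 ± 0.15) and FRYL (−0.97 ± 0.14) fell, and MOB2 (0.55) and MOB3C (0.63 ± 0.13) rose, with edgeR adjusted p from 0.00129 to 0.0124. MOB2 missed the threshold without siCon replicate 2 (0.44, edgeR adjusted p = 0.0527).

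Of 18 scaffolds at junctions and the cortex, 11 fell and 1 rose, with a median log2 fold change of −0.59. Over all genes tested, 23.7% fell and 22.5% rose. Without siCon replicate 1, 12 of the 18 fell and 3 rose, where 64.4% of all genes passed. Without any 1 of the other libraries, 7 to 10 fell and 0 rose, where 30.5% to 37.1% of all genes passed. The angiomotin genes AMOT (3.83 ± 1.74 CPM in siMK5, 18.1 ± 7.92 CPM in siCon, log2 fold change −2.24 ± 0.48) and AMOTL2 (104 ± 5.45 CPM in siMK5, 454 ± 25.3 CPM in siCon, −2.13 ± 0.10), whose proteins bind YAP, had the largest falls in this list. Their paralog AMOTL1 was at 0.41 and missed the threshold (edgeR adjusted p = 0.296). Its siCon levels were 73.4 CPM in replicate 1 and 166 and 160 CPM in replicates 2 and 3, and its log2 fold change was 0.13 without siCon replicate 1. Of 15 tested FERM relatives of NF2 and FRMD6, 7 fell and 1 rose, with a median of −0.53. That is 53.3% against 46.2% of all genes tested. FRMD4A, another FERM-domain gene, was at 67.7 ± 5.55 CPM in siMK5 and 221 ± 12.6 CPM in siCon (−1.71 ± 0.11, edgeR adjusted p = 0.000209), and EPB41L5 fell by −1.18 ± 0.18. FRMD4B fell by −3.11 ± 0.53 at low levels, 0.197 ± 0.105 CPM in siMK5 and 1.74 ± 0.752 CPM in siCon. The ezrin, radixin and moesin genes EZR, RDX and MSN, the FERM proteins nearest to merlin, had log2 fold changes of −0.93, −0.77 and −0.72 and all passed, the largest of their adjusted p-values being 0.00463, while EPB41 rose by 0.96. Differences between the lists were not tested.

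Of 7 tested atypical cadherin and Dachsous pathway genes, 1 rose and 1 fell, which is 28.6% against 46.2% of all genes tested. FJX1, the human counterpart of the fly kinase Four-jointed, which modifies Fat and Dachsous cadherins in flies, fell to 23.1 ± 1.14 CPM in siMK5, against 121 ± 14.2 CPM in siCon (−2.39 ± 0.12, edgeR adjusted p = 0.000178). CELSR3, a flamingo-type cadherin, rose to 22.6 ± 0.848 CPM, against 4.24 ± 1.15 CPM in siCon (2.41 ± 0.22). FAT4 was at 0.03 on that scale (edgeR adjusted p = 0.874), and FAT2, FAT3 and DCHS2 were too low to test.

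In the STRIPAK complex, a phosphatase assembly that removes activating phosphates from STK3 and STK4, 13 of 15 genes did not pass, none rose and 2 fell. Without siCon replicate 1, 5 of the 15 rose and 2 fell. Over all genes tested, 46.2% passed with all libraries and 64.4% without siCon replicate 1. PPP2CA, a catalytic subunit of protein phosphatase 2A, fell to 59.7 ± 3.999 CPM in siMK5, against 189 ± 56.7 CPM in siCon (−1.66 ± 0.21, edgeR adjusted p = 0.00128). Its paralog PPP2CB was at 0.13 (edgeR adjusted p = 0.708), and at 0.48 without siCon replicate 1, where it passed upward (edgeR adjusted p = 0.00502). CTTNBP2NL fell by −0.42 ± 0.11 (edgeR adjusted p = 0.0191). It missed the threshold without siMK5 replicate 2 or 3 or siCon replicate 2 (edgeR adjusted p from 0.0576 to 0.0933). Of 5 tested RASSF genes, whose SARAH-domain proteins can bind STK3 and STK4, RASSF2 fell at low levels (0.456 ± 0.0535 CPM in siMK5, 2.23 ± 0.969 CPM in siCon, −2.28 ± 0.38). RASSF1 rose by 0.56 ± 0.15 (edgeR adjusted p = 0.0202), and passed without siCon replicate 1 but missed the threshold without any 1 of the other 5 libraries (edgeR adjusted p from 0.0557 to 0.0786).

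Of 14 genes for the turnover of LATS kinases and YAP, 4 rose and 3 fell, which is 50% against 46.2% of all genes tested. The ubiquitin ligase gene SIAH2, whose protein marks LATS2 for degradation in hypoxia, rose to 45.9 ± 7.68 CPM in siMK5, against 17.4 ± 1.36 CPM in siCon (1.40 ± 0.15, edgeR adjusted p = 0.000757), and ITCH, whose protein marks LATS1 for degradation, rose by 0.57 (edgeR adjusted p = 0.0137). ITCH missed the threshold without siCon replicate 2 or 3 (edgeR adjusted p = 0.0618 and 0.0587). PJA2, a ligase for MOB1, rose by 0.78 (edgeR adjusted p = 0.00184). NEDD4L fell by −0.98 ± 0.11 (edgeR adjusted p = 0.000750). LMO7 fell by −1.38 ± 0.37 (edgeR adjusted p = 0.0202), by −0.79 without siCon replicate 1, and missed the threshold without any 1 of the siMK5 libraries (edgeR adjusted p from 0.0631 to 0.0722).

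**Figure D5:**
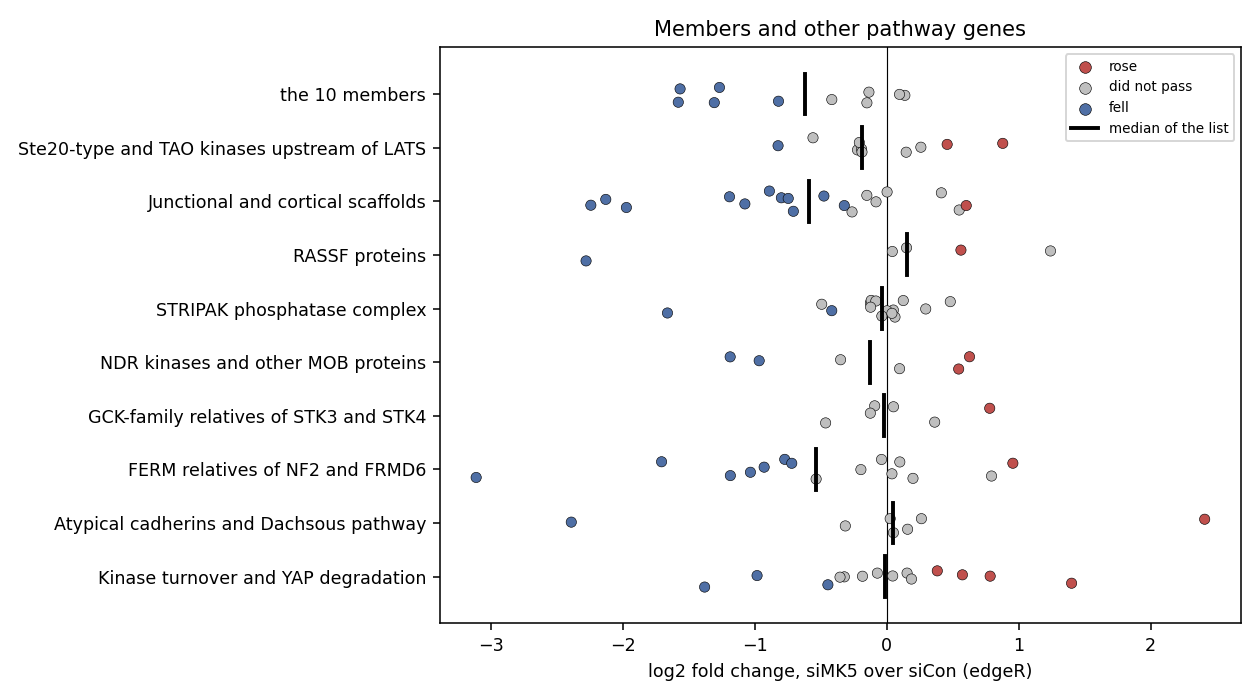
Log2 fold change, siMK5 over siCon, of the 10 genes and of the tested genes of 9 other pathway lists, with 1 point a gene and the median of each list as a bar. The medians of the 10 genes (−0.62), the junctional and cortical scaffolds (−0.59) and the FERM relatives (−0.53) lie lowest, and that of the STRIPAK complex is at −0.04.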

How the data were processed

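Libraries were prepared with the TruSeq V2 kit, per the labels' protocols. Build GRCh37, FastQC, Trimmomatic 0.36, HTSeq 0.9.1 and TopHat2 2.1.1 stand in the submitters' processing notes, with no settings; no annotation release or strand setting is given in the sources used here, so antisense overlaps are not resolved. The deposited table is named for CPM but holds whole-number counts per gene.

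In R 4.3.3, edgeR 4.0.16 kept 13431 genes (filterByExpr, least count 10, least total 15), scaled libraries by TMM and compared the groups without a block (quasi-likelihood test, threshold 0.05). A standard error is the log2 fold change divided by the square root of F. The fit was tested on simulated counts with less spread than these libraries and no deviating replicate, so that test does not cover the deviation of replicate 1. Alternatives used DESeq2 1.42.0, limma 3.58.1, other scalings, no filter, a replicate block and left-out libraries. Deviations from group means correlated at 0.258, 0.206 and 0.248 between same-numbered libraries. Changes within same-numbered pairs are given as a description, matched by number alone, and the main tests did not use pairs. The labels do not say what a shared number means. Differently numbered libraries 2 and 3 correlated at 0.182 and 0.151, and those pairing replicate 1 with 2 or 3 at −0.263 to −0.208. In each group the deviations of a gene sum to 0, so these correlations depend on each other. Negative values are in part forced by that centring. The correlations therefore cannot decide whether same-numbered libraries are pairs. Transcript lengths and words came from GENCODE 29 (GRCh38), by gene identifier.

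The 10 genes, the lists and the tests were chosen with earlier results of these data known. Named genes are these 10, MAPKAPK5, YAP1 and WWTR1, up to 3 passing genes with the largest changes in each list, and the 3 profiles nearest to FAT1 and FRMD6. EZR, RDX, MSN, EPB41, MOB2, ITCH, PJA2, FAT2, FAT3, FAT4, DCHS2, STK38, STK38L, AMOTL1, PPP2CB and the markers that changed were added after their values were seen. A gene that this rule names is not reported here.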

Additional observations from a re-analysis of the deposited data

How the results depend on the processing

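The falls of FAT1, FRMD6, SAV1 and MOB1B passed under every alternative run: DESeq2, limma, RLE, upper-quartile and total-count scaling, no filter, the replicate block, each library left out in turn, and replicate 1 left out of both groups. With the replicate block their log2 fold changes were −1.60, −1.56, −1.27 and −1.29, no call among the 10 genes changed, and 3205 genes fell and 3154 rose over the whole table. Total-count scaling moved the median log2 fold change of all genes to 0.10. With single libraries left out, NF2 ranged from −1.002 to −0.72, STK3 from −0.29 to 0.0907, LATS1 from −0.0099 to 0.31, LATS2 from −0.0919 to 0.21 (−0.02 without siCon replicate 3) and MOB1A from −0.38 to 0.37, and the difference of log2 ratios of LATS2 to LATS1 ranged from −0.10 to 0.0162; the cause was not tested. Among genes whose alternatives were chosen after seeing the data, STK38L ranged from −0.173 to 0.315, PPP2CB from −0.0564 to 0.483 (−0.0412 without siCon replicate 3) and FAT4 from −0.0798 to 0.089; without replicate 1 of both groups STK38L was at −0.29 and FAT4 at −0.0288. Of the 10 genes, 4 to 5 fell and 0 to 1 rose. Over all genes, 2103 to 4419 fell and 2064 to 4455 rose, and of the other pathway genes 22 to 36 fell and 9 to 28 rose. Without replicate 1 of both groups, MOB1A was at 0.32 and counted as 1 rise among the 10, 5177 genes fell and 5195 rose (75.8% of all genes tested), with 44 and 29 among the other pathway genes. The common biological coefficient of variation was 21.2% with all libraries and 4.63% without replicate 1, whose deviation has no source in the labels. Whether replicates 2 and 3 are more alike in culture or handling was not tested. At 3 libraries a group, the missed threshold of the 4 kinases and MOB1A does not show that they were unchanged, and p-values measure only the spread between these libraries.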
